A study of Mus musculus with 12 samples.

Results

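Genes of the interleukin-4 (IL-4) signaling route, 10 in all, were followed by RNA sequencing in murine bone marrow–derived macrophages (BMDMs): the receptor chains Il4ra, Il2rg and Il13ra1, the kinases Jak1, Jak3 and Tyk2, the transcription factor Stat6, and the feedback genes Socs1, Socs3 and Cish. They were chosen by name and not by their values, though with earlier results of these data known. They are the chains, kinases, transcription factor and inhibitors of this route, and are 10 of the 34327 genes in the deposited table. The question was whether the genes that carry the IL-4 signal themselves change with the density of the collagen around the cell. All 12 libraries came from wild-type C57BL/6 BMDMs (C57BL/6J in the protocol) cultured for 24 hours, with 2 libraries in each of 6 groups. In 4 groups the cells were embedded in floating gels of rat tail type I collagen at 2 mg/ml (low collagen) or 7 mg/ml (high collagen), and in the other 2 groups they lay on tissue culture (TC) plates. Each of these settings was left untreated or received recombinant murine IL-4 at 20 ng/ml, so that the untreated libraries are the controls for the cytokine. The cells were grown from marrow in medium conditioned by L929 cells, a fibroblast line. The labels number the libraries of a group as replicates but do not say whether they came from separate cultures or mice, so the p-values below measure the spread between libraries, which may be technical.

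Values are TPM, the abundance of a gene's transcripts per length, scaled by the authors to the same total in each library (999658 to 999723). TPM keep no read depth, so the number of reads behind a value is unknown. Log2 values of TPM + 1 of the same group correlated between replicates with r of 0.980 to 0.985, and no pair of libraries was identical. All 10 genes passed the filter of a mean TPM of at least 1, the lowest being Socs3 with a mean of 6.31 TPM over 12 libraries. All 10 macrophage markers checked, among them Csf1r, Adgre1 and Lyz2, were present, with summed levels of 18902 to 55265 TPM. The summed markers of T and NK cells were at 2.50 to 12.6 TPM, of B cells at 1.05 to 6.84, of neutrophils at 4.38 to 31.4, of mast cells and basophils at 0 to 0.383, of eosinophils at 0.458 to 3.37, of dendritic cells at 0.841 to 1.84 and of fibroblasts at 0.0608 to 0.668. Ncr1, Ly6g, Fcer1a and Epx were listed at 0 in every library. In bulk RNA, fewer cells of a type and less RNA per cell cannot be told apart.

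As background, IL-4 binds the IL-4 receptor alpha chain, encoded by Il4ra, which then pairs either with the common gamma chain (Il2rg) to form the type I receptor or with the IL-13 receptor alpha 1 chain (Il13ra1) to form the type II receptor, which also binds IL-13. The chains have no enzyme activity of their own and carry kinases of the Janus family: JAK1 sits on the alpha chain, JAK3 on the common gamma chain and TYK2 on the IL-13 receptor chain. The kinases phosphorylate STAT6, which moves to the nucleus and switches on the genes of alternative macrophage activation, and the SOCS and CIS proteins, made in response to cytokines, damp the signal at the receptor.

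Between the gels, most of these genes were not called in either IL-4 state. High minus low collagen was tested with limma on log2(TPM + 1), and genes with a Benjamini-Hochberg adjusted p under 0.2 were called. With IL-4, 3 of the 10 were called, where 21.1% of all genes tested were called: Il13ra1 and Il2rg were higher and Socs1 was lower in high-collagen gels. Without IL-4, 2 of the 10 were called, against 8.02% of all genes: Il2rg was higher and Jak3 was lower. The median log2 fold change of the 10 was 0.04 with IL-4, beside 0.06 for all genes, and -0.01 without IL-4, beside -0.02. Averaged over both IL-4 states, 5 of the 10 were called, against 27.4% of all genes, with Il2rg and Il13ra1 higher and Jak3, Stat6 and Socs1 lower at high collagen (15.3% and 12.1% of all genes were called higher and lower). With 10 genes, 1 gene more or less moves such a share by 10 percentage points, and nothing particular to this route is read from these counts. The libraries of the 2 gels did not overlap in 8 of the 10 genes with IL-4 (55.5% of all genes) and in 6 of the 10 without it (45.5%). With 2 libraries a group an exact permutation test of 1 gene cannot go below p = 0.33, so each call leans on the pooled variance in limma.

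**Figure D1:**
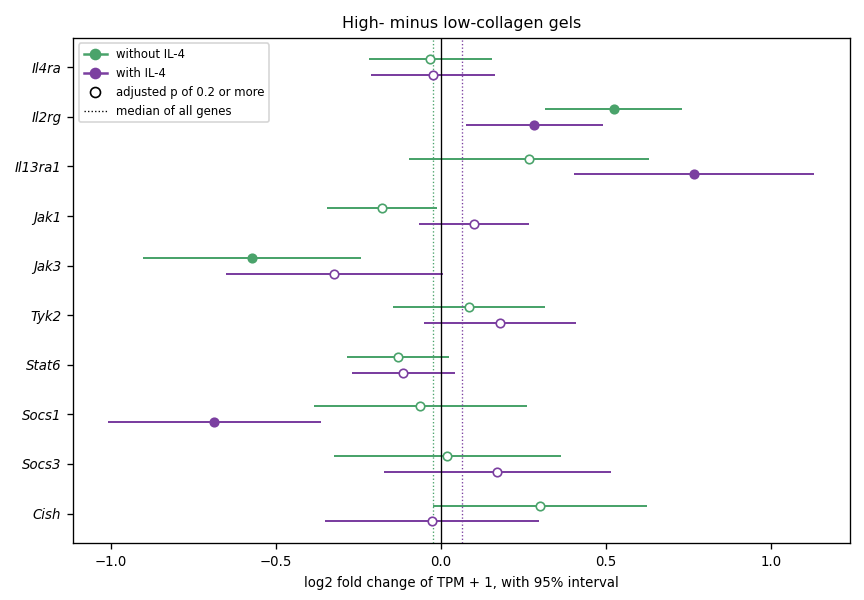
Difference between high- and low-collagen gels for each gene (horizontal axis: log2 fold change of TPM + 1, high minus low), without IL-4 (green) and with IL-4 (purple). Points are limma estimates from the 8 gel libraries, bars are 95% intervals, filled points have an adjusted p under 0.2, and dotted lines mark the median of all genes. Il2rg lies to the right of 0 in both states, Jak3 and Stat6 to the left, and the intervals of Il4ra within 0.22 of 0.

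Il4ra (chr7:125552120-125579474, plus strand, GRCm38), the chain that binds IL-4 and is shared by both receptor types, was not called between the gels. It measured 102 and 110 TPM in untreated low-collagen gels and 107 and 101 TPM in untreated high-collagen gels. With IL-4 it measured 94.9 and 89.0 TPM at low collagen and 94.99 and 85.8 TPM at high collagen. The libraries of the 2 gels overlapped in both states. The log2 fold change was -0.03 with IL-4 (95% interval -0.21 to 0.16, limma adjusted p = 0.882) and -0.03 without it (-0.22 to 0.16, adjusted p = 0.887), so that a change of more than about 0.22 either way lies outside these intervals. After the libraries were rescaled by their median ratio, the value with IL-4 was -0.10, with an interval of -0.29 to 0.08 that reaches past that limit.

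Il2rg (chrX:101264378-101268255, minus strand), the common gamma chain that completes the type I receptor and also serves the receptors of several other lymphoid cytokines, was higher at high collagen in both IL-4 states. Without IL-4 it measured 84.9 and 94.97 TPM at low collagen and 127 and 132 TPM at high collagen. Under IL-4 the levels were 123 and 112 TPM at low collagen and 134 and 152 TPM at high collagen. No library of a low-collagen gel reached the lowest high-collagen library of the same IL-4 state. The log2 fold change was 0.52 (SE 0.09) without IL-4 and 0.28 (SE 0.09) with it, with limma adjusted p of 0.0615 and 0.117. The mean over both states was 0.40 with an adjusted p of 0.0123. Without IL-4 the call was lost when high collagen untreated replicate 2 was left out (adjusted p = 0.223), and with IL-4 it was lost without high collagen + IL-4 replicate 2 (0.431) or without low collagen + IL-4 replicate 2 (0.406), and just lost when no filter was applied (0.202). Of the 2437 words of 31 bases in the Il2rg transcripts, 28.7% also occur in another gene, most of them in Gm20489, which was listed at 0 to 1.05 TPM, so the division of reads between them may affect the level.

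Il13ra1 (chrX:36112110-36171259, plus strand), the second chain of the type II receptor, was the lowest of the 3 chains on the TPM scale in every library. With IL-4 it measured 2.35 and 1.96 TPM at low collagen and 4.28 and 4.45 TPM at high collagen, a log2 fold change of 0.77 (SE 0.16, limma adjusted p = 0.0372). Without IL-4 it measured 10.9 and 14.1 TPM at low collagen and 14.9 and 15.3 TPM at high collagen, which was 0.27 (SE 0.16) and did not pass the test (adjusted p = 0.463). The groups did not overlap in either state, and the difference between these 2 collagen effects was not called (0.50, 95% interval -0.01 to 1.02, adjusted p = 0.516). The Il13ra1 call with IL-4 held whichever library was left out, with adjusted p of up to 0.187.

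The levels of the 3 chains relative to each other, as ratios of TPM, moved with them. In untreated gels there were 0.831 and 0.861 Il2rg transcripts per Il4ra transcript at low collagen and 1.19 and 1.31 at high collagen. With IL-4 the ratio was 1.29 and 1.26 at low collagen and 1.41 and 1.77 at high collagen, so the libraries of the 2 gels stood apart in both states. The ratio of Il2rg to Il13ra1 with IL-4 was 52.2 and 57.1 at low collagen and 31.4 and 34.1 at high collagen. These ratios of transcripts were not tested and say nothing of the number of receptors at the cell surface.

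Among the kinases, Jak1 (chr4:101152367-101265282, minus strand), which serves both receptor types, was at 111 and 107 TPM at low collagen and 98.6 and 93.5 TPM at high collagen without IL-4. With IL-4 it was at 79.5 and 73.2 TPM at low collagen and 80.7 and 83.0 TPM at high collagen. The groups did not overlap, but neither difference was called by limma (-0.18, adjusted p = 0.287, and 0.10, adjusted p = 0.447). Tyk2 (chr9:21104068-21131243, minus strand), the kinase of the type II chain, was between 42.3 and 52.5 TPM in all 8 gel libraries, with log2 fold changes of 0.08 and 0.18 and adjusted p of 0.740 and 0.329 in the same order.

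Jak3 (chr8:71676296-71690575, plus strand), which binds the common gamma chain and is best known from lymphoid cells, was lower at high collagen without IL-4. It measured 25.8 and 29.3 TPM at low collagen and 18.4 and 17.9 TPM at high collagen, a log2 fold change of -0.57 (SE 0.14, limma adjusted p = 0.121). Under IL-4 the levels were 18.9 and 15.7 TPM at low collagen and 12.1 and 15.2 TPM at high collagen, -0.32 (SE 0.14), which was not called (adjusted p = 0.228) but was called at -0.40 both after median-ratio rescaling (0.0988) and after quantile normalization (0.102). The groups did not overlap in either state, and with IL-4 the gap between them was from 15.2 to 15.7 TPM. Averaged over both states the difference was -0.45 with an adjusted p of 0.0351. The call without IL-4 was lost when either high-collagen library was left out (adjusted p = 0.301 and 0.337) or low collagen untreated replicate 2 (0.330), or when no filter was applied (0.219). Jak3 moved opposite to Il2rg, its receptor partner: the ratio of Jak3 to Il2rg was 0.304 and 0.309 in untreated low-collagen gels and 0.145 and 0.136 in untreated high-collagen gels. The summed neutrophil markers were also higher in untreated low-collagen gels (22.8 to 31.4 TPM) than in untreated high-collagen gels (15.2 to 18.9 TPM). The summed B cell markers were at 5.99 to 6.84 TPM and 4.77 to 5.19 TPM in the same order. The summed T and NK cell markers were not higher at low collagen, at 7.27 to 8.33 TPM and 7.18 to 12.6 TPM, which overlap. The part of such cells in the Jak3 values was not tested. Of the Jak3 words of 31 bases, 8.29% also occur in another gene, most of them in Insl3, which was listed at 0 to 12.2 TPM.

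Stat6 (chr10:127642986-127660957, plus strand), which carries the signal to the nucleus, had group means of 107 to 152 TPM. It measured 135 and 141 TPM at low collagen and 124 and 128 TPM at high collagen without IL-4. With IL-4 it measured 121 and 112 TPM at low collagen and 108 and 107 TPM at high collagen. Each high-collagen library lay below each low-collagen library of its state. The differences were small, -0.13 without IL-4 (95% interval -0.29 to 0.02, limma adjusted p = 0.395) and -0.11 with it (-0.27 to 0.04, adjusted p = 0.352), and neither was called. After median-ratio rescaling the value with IL-4 was -0.19 and was called (adjusted p = 0.122). Their mean of -0.12 was called (adjusted p = 0.151), but not after leaving out either high collagen untreated library, either high collagen + IL-4 library, low collagen untreated replicate 2 or low collagen + IL-4 replicate 1 (adjusted p of 0.221 to 0.328), nor without the mean-variance trend (0.253).

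**Figure D2:**
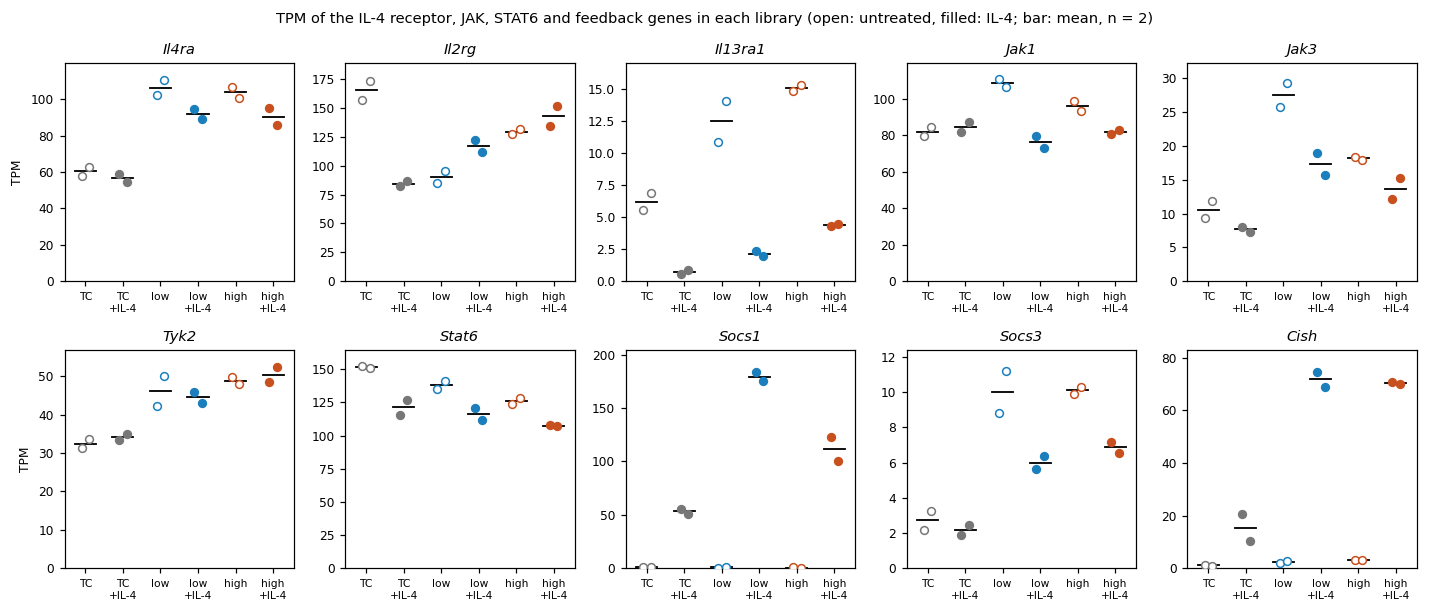
TPM of each gene in each of the 12 libraries (vertical axes, linear, starting at 0), in TC plates (gray), low-collagen gels (blue) and high-collagen gels (orange), untreated (open points) and with IL-4 (filled points), with the mean of 2 libraries as a bar. Socs1 and Cish are near 0 without IL-4 and reach 175 to 183 TPM and 68.9 to 74.4 TPM in low-collagen gels with IL-4. Il13ra1 falls with IL-4 in all 3 settings and Il2rg on TC plates.

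Of the feedback genes, Socs1 and Cish rose with IL-4 more than any other of the 10 genes, while Socs3 did not rise. The sequences near the start sites of Cish, Socs3 and Socs1 are shown because these genes differ in their response to IL-4 and, for Socs1, in their response to collagen. They were taken from RefSeq (GRCm38.p6) in windows from 250 bases before to 50 after the annotated start, which matched all 10 genes, and were searched on both strands for TTCNNNGAA, the general STAT motif, and for TTCNNNNGAA, the wider form that STAT6 prefers. Both motifs read the same on the other strand. The first occurs in 8.30% and the second in 6.95% of 32851 promoters. Among the 10 genes, TTCNNNGAA was found in the windows of Cish and Socs3 and TTCNNNNGAA in none. A match is a description of letters and not a site that was shown to be bound, and no match says only that these letters are not in the window. Capitals mark the matches.
Cish (chr9:107296654-107296683, plus strand, around the annotated start): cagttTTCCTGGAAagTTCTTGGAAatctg
Socs3 (chr11:117969452-117969616, minus strand, before the RefSeq start): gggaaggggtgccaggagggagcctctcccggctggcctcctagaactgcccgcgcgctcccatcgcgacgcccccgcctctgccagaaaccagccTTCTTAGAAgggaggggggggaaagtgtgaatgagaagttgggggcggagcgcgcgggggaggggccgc
Socs1 (chr16:10785537-10785786, minus strand, the stretch just before the start, with no match): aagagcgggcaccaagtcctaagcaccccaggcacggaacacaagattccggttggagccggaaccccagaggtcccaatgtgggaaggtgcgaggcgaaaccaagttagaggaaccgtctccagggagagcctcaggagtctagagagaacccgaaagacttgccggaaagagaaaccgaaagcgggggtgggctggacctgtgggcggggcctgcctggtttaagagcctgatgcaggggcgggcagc
In Cish the 2 matches begin at the annotated start and 11 bases after it, in a stretch that another transcript of the gene has in its 5′ untranslated region. In Socs3 the match begins 154 bases before the RefSeq start, and the stretch lies inside the GENCODE gene, whose outermost start is farther upstream.

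Socs1 (chr16:10782240-10785536, minus strand) encodes a suppressor that binds Janus kinases and blocks them. Without IL-4 it was close to the lower end of what was measured, at 0.678 and 1.01 TPM in low-collagen gels and 0.825 and 0.691 TPM in high-collagen gels, and these groups overlapped. Under IL-4 the levels were 183 and 175 TPM at low collagen and 123 and 100 TPM at high collagen, with a gap between the groups. The log2 fold change of high against low collagen with IL-4 was -0.69 (95% interval -1.01 to -0.37, limma adjusted p = 0.0360), a mean that was 0.622 times as high. It ranked 221 from the lowest of the 11852 genes tested. The call was lost without high collagen + IL-4 replicate 2, the lower of its group (-0.54, adjusted p = 0.213). Without IL-4 the difference was -0.06 (adjusted p = 0.871).

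Cish (chr9:107296026-107302784, plus strand) encodes CIS, an inhibitor named for its cytokine induction and best known as a target of STAT5. With IL-4 it measured 74.4 and 68.9 TPM at low collagen and 70.8 and 69.8 TPM at high collagen, and the high-collagen libraries lay between the low-collagen ones. The log2 fold change was -0.03 (95% interval -0.35 to 0.30, limma adjusted p = 0.930). Without IL-4 it measured 1.96 and 2.91 TPM at low collagen and 3.18 and 3.19 TPM at high collagen, 0.30 (SE 0.14), which was not called (adjusted p = 0.353) but was called at 0.50 without low collagen untreated replicate 2 (0.186). The ratio of Socs1 to Cish with IL-4 was 2.46 and 2.54 at low collagen and 1.73 and 1.44 at high collagen, so these 2 feedback genes did not keep the same ratio in both gels. That ratio was not tested.

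Socs3 (chr11:117966079-117970047, minus strand), the suppressor known from receptors that use gp130, the chain shared by IL-6 and its relatives, was not called between the gels. It measured 8.81 and 11.2 TPM at low collagen and 9.90 and 10.3 TPM at high collagen without IL-4, and 5.61 and 6.36 TPM against 7.18 and 6.53 TPM with IL-4. The log2 fold changes were 0.02 and 0.17, with limma adjusted p of 0.968 and 0.537.

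Whether collagen density changed the response to IL-4 itself was tested as the interaction, the IL-4 effect at high collagen minus that at low collagen. None of the 10 genes was called by limma (0 of 10, against 0.363% of all genes). The share of all genes with an unadjusted p under 0.05 was not counted, so the 2 members under that limit are only described. These were Socs1, with -0.62 (95% interval -1.08 to -0.17, unadjusted p = 0.0136, adjusted p = 0.415), and Jak1, with 0.28 (0.04 to 0.51, unadjusted p = 0.0259, adjusted p = 0.456). The values were -0.33 (-0.79 to 0.13) for Cish, 0.01 (-0.26 to 0.27) for Il4ra and 0.02 (-0.20 to 0.24) for Stat6. For Socs1 the interaction was near its difference between the gels with IL-4 (-0.69), but with a larger SE (0.20 against 0.14). The missing call of the Socs1 interaction therefore does not show that its IL-4 response was the same in both gels.

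IL-4 changed most of the genes in both gels. In low-collagen gels 9 of the 10 were called, 3 higher and 6 lower, where 53.6% of all genes were called, 13.2% higher and 40.4% lower. In high-collagen gels it was 8 of the 10, 2 higher and 6 lower, against 34.3% of all genes, 11.5% higher and 22.8% lower. On TC plates 6 of the 10 were called, 2 higher and 4 lower, against 38.8%, 14.7% higher and 24.0% lower. Members' medians were -0.23, -0.21 and -0.15 in that order. The median of all genes was itself -0.19 with IL-4 in low-collagen gels, -0.10 in high-collagen gels and -0.06 on TC plates. Since TPM add up to a fixed total, such a shift cannot be told apart from a change of scale, and small falls are therefore also given after the libraries were rescaled by their median ratio, which brings these medians to within 0.01 of 0.

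Socs1 and Cish rose in all 3 settings. Socs1 rose from group means of 0.842 to 179 TPM in low-collagen gels, from 0.758 to 112 TPM in high-collagen gels and from 0.993 to 53.2 TPM on TC plates. On the log2(TPM + 1) scale, which understates the change of a gene near 0, this was 6.62, 5.99 and 4.77, with limma adjusted p of 1.43e-07, 3.07e-07 and 2.42e-08. Socs1 ranked 6 from the highest of 11852 genes in each of the gels. Cish rose from 2.43 to 71.7 TPM, from 3.19 to 70.3 TPM and from 1.13 to 15.5 TPM, or by 4.42, 4.09 and 2.88. No untreated library of either gene reached any library with IL-4. Socs3 fell with IL-4 in the gels, by 0.65 at low and 0.50 at high collagen (adjusted p = 0.0140 and 0.0597), and its -0.23 on TC plates was not called (adjusted p = 0.431). After rescaling, Socs3 was at -0.47 and -0.41 in the gels, both still called, and at -0.18 on TC plates, not called. The Socs3 call at high collagen was lost without high collagen + IL-4 replicate 2 (adjusted p = 0.207), and on TC plates it was called without TC plate untreated replicate 1 (-0.44, adjusted p = 0.189).

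Il13ra1 fell with IL-4 in all 3 settings. Its log2 fold change was -2.09 in low-collagen gels, -1.59 in high-collagen gels and -2.05 on TC plates (limma adjusted p = 6.78e-05, 0.000439 and 2.08e-05). Its mean with IL-4 was 0.173, 0.289 and 0.120 times the untreated mean. On TC plates it dropped from 5.53 and 6.91 TPM to 0.594 and 0.902 TPM. Il2rg, in contrast, rose by 0.38 in low-collagen gels (adjusted p = 0.0158, and 0.59 after rescaling), measured 0.14 in high-collagen gels (adjusted p = 0.330, and 0.24 with an adjusted p of 0.0581 after rescaling) and fell by 0.96 on TC plates, from 157 and 173 TPM to 82.0 and 86.7 TPM (adjusted p = 3.55e-05). Il4ra, by comparison, moved little. Its log2 fold change was -0.21 and -0.20 in low- and high-collagen gels (adjusted p = 0.0906 and 0.144), both called, and became 0.00 and -0.10 after rescaling (adjusted p = 0.997 and 0.476), neither called. On TC plates it was -0.08 and not called (adjusted p = 0.515). The Il4ra call in low-collagen gels was also lost without low collagen untreated replicate 2 or low collagen + IL-4 replicate 2 (adjusted p = 0.326 and 0.334), and that in high-collagen gels without either untreated replicate or without high collagen + IL-4 replicate 2 (0.207 to 0.446), without the mean-variance trend (0.225) or, narrowly, without a filter.

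**Figure D3:**
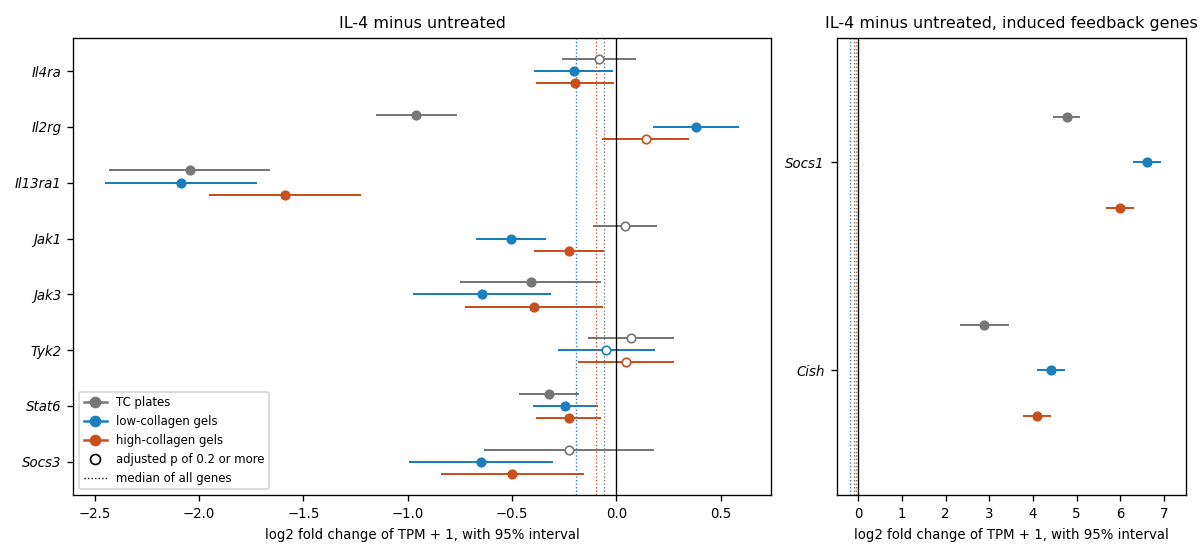
Effect of IL-4 (horizontal axes: log2 fold change of TPM + 1, IL-4 minus untreated) on TC plates (gray), in low-collagen gels (blue) and in high-collagen gels (orange), with Socs1 and Cish on an axis of their own. Points are limma estimates, bars are 95% intervals, filled points have an adjusted p under 0.2 and dotted lines mark the median of all genes. Socs1 and Cish lie between 2.88 and 6.62, and Il2rg lies on opposite sides of 0 on TC plates and in low-collagen gels.

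Jak3 fell with IL-4 in all 3 settings, by 0.64 in low-collagen gels, 0.39 in high-collagen gels and 0.41 on TC plates (limma adjusted p = 0.0122, 0.105 and 0.0807). After rescaling, the Jak3 values were -0.45, -0.30 and -0.35 in the same order, all still called. Jak1 fell by 0.51 in low-collagen gels (adjusted p = 0.00162, and -0.30 after rescaling) and by 0.23 in high-collagen gels (adjusted p = 0.0709), the latter not called after rescaling (-0.13, adjusted p = 0.301), and measured 0.04 on TC plates (adjusted p = 0.720). Tyk2 was not called in any setting, with values of -0.05, 0.05 and 0.07, although after rescaling the value in low-collagen gels was 0.16 and called (adjusted p = 0.189). Stat6 fell by 0.25, 0.23 and 0.32 in the same order (adjusted p = 0.0278, 0.0565 and 0.00523). After rescaling, Stat6 in the gels was -0.04 and -0.13 and no longer called (adjusted p = 0.685 and 0.223), while on TC plates it was -0.26 and still called. Leaving out 1 library also ended the call of Jak1 in high-collagen gels (without untreated replicate 1 or IL-4 replicate 1, adjusted p = 0.275 and 0.257). It ended that of Jak3 in high-collagen gels (without either untreated replicate or IL-4 replicate 1, 0.230 to 0.424) and that of Jak3 on TC plates (without untreated replicate 2 or IL-4 replicate 2, 0.401 and 0.269).

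The gels were also set against TC plates, where culture on plastic, the shape of the surroundings and the handling of the cells all differ from the gels and cannot be told apart. Both gels are compared with the same plate libraries, so the 2 sets of values are not independent. Without IL-4, 9 of the 10 genes were called in low-collagen gels, 7 higher and 2 lower (72.8% of all genes), and 9 of the 10 in high-collagen gels, 7 higher and 2 lower (73.5%). With IL-4, 9 of the 10 were called in each, 8 higher and 1 lower (75.1% in low- and 74.6% in high-collagen gels). Of all genes, in low- and high-collagen gels, 28.5% and 28.0% were called higher and 44.3% and 45.5% lower without IL-4, and 22.8% and 26.5% higher and 52.2% and 48.1% lower with it. The median of all genes was -0.13 and -0.16 without IL-4 and -0.28 and -0.20 with it, against 0.58, 0.65, 0.77 and 0.75 for the 10 genes in the same order.

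Il4ra was higher in gels in both states. It measured 57.9 and 62.8 TPM on untreated TC plates and 59.1 and 54.8 TPM on plates with IL-4, and every gel library was at 85.8 TPM or more. The log2 fold change against TC plates was 0.81 and 0.77 without IL-4 and 0.68 and 0.66 with it, in low- and high-collagen gels, with limma adjusted p of 6.20e-05 or less. Il13ra1 was higher by 0.90 and 1.16 without IL-4 and by 0.86 and 1.62 with it, with adjusted p of 0.00166 or less. On plates with IL-4 it was at 0.594 and 0.902 TPM, where the log2(TPM + 1) scale understates a change. As a ratio of means, Il13ra1 in low- and high-collagen gels was 2.01 and 2.43 times its plate level without IL-4. With IL-4 it was 2.88 and 5.84 times. Il2rg changed direction between the states: it was lower in gels than on TC plates without IL-4 (-0.87 and -0.35, adjusted p = 1.76e-05 and 0.00619) and higher with it (0.47 and 0.75, adjusted p = 0.00101 and 4.47e-05). After rescaling these were -0.70 and -0.15 without IL-4 and 0.79 and 1.00 with it, all still called, the second at an adjusted p of 0.0824.

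**Figure D4:**
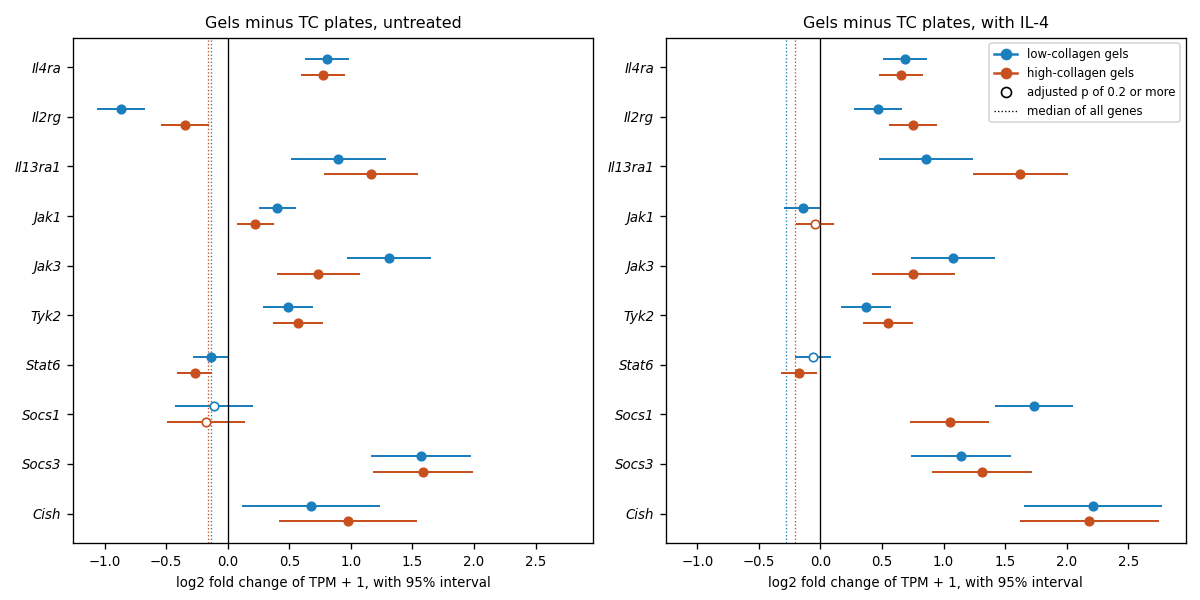
Difference between gels and TC plates (horizontal axes: log2 fold change of TPM + 1, gel minus plate), untreated on the left and with IL-4 on the right, in low-collagen (blue) and high-collagen gels (orange). Points are limma estimates from 12 libraries, bars are 95% intervals, filled points have an adjusted p under 0.2 and dotted lines mark the median of all genes. Il4ra, Il13ra1, Jak3, Tyk2 and Socs3 lie to the right of 0 in both panels, while Il2rg lies left of 0 without IL-4 and right of it with IL-4.

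Of the kinases, Jak3 measured 9.30 and 11.9 TPM on untreated TC plates and 8.02 and 7.31 TPM on plates with IL-4. It was higher in low-collagen gels by 1.31 without and 1.08 with IL-4, and in high-collagen gels by 0.74 and 0.75 (limma adjusted p of 0.00193 or less). The summed neutrophil markers were 4.38 to 9.43 TPM on plates and 13.4 to 31.4 TPM in gels, the summed B cell markers 1.05 to 1.99 and 4.48 to 6.84, and the summed T and NK cell markers 2.50 to 3.69 and 4.36 to 12.6. Their part in the Jak3 values was not tested. Tyk2 measured 31.4 to 34.8 TPM on plates and was higher in gels by 0.37 to 0.57 (adjusted p of 0.00548 or less), the lowest of these, in low-collagen gels with IL-4, being 0.68 after rescaling.

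Jak1 and Stat6 gave small differences, several of which depended on the scaling. Jak1 was higher in gels without IL-4 (0.40 and 0.22, limma adjusted p = 0.000577 and 0.0160), and after rescaling still so, at 0.57 and 0.42. With IL-4 it was at -0.14 (called, adjusted p = 0.0886) and -0.05 (not called, adjusted p = 0.586), and after rescaling both turned positive and were called, at 0.17 and 0.20. Stat6 measured 153 and 151 TPM on untreated plates and 116 and 127 TPM on plates with IL-4. It was at -0.14 and -0.27 in gels without IL-4, both called, and at -0.06 (not called) and -0.17 (called) with it, but after rescaling the values were 0.04 and -0.08 without IL-4, neither called, and 0.26 (called) and 0.07 (not called) with it. The Jak1 call in low-collagen gels with IL-4 was lost without TC plate + IL-4 replicate 2 or low collagen + IL-4 replicate 2 (adjusted p = 0.353 and 0.398). The Stat6 call in untreated low-collagen gels was lost without TC plate untreated replicate 1 or low collagen untreated replicate 1 (0.245 and 0.301), and that in high-collagen gels with IL-4 without TC plate + IL-4 replicate 2 (0.240). Without TC plate + IL-4 replicate 1, Stat6 in low-collagen gels with IL-4 was called at -0.12 (0.182).

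Among the feedback genes, Socs3 measured 2.19 and 3.28 TPM on untreated TC plates and 1.89 and 2.45 TPM on plates with IL-4, below every gel library. It was higher in gels by 1.57 and 1.59 without IL-4 and by 1.14 and 1.31 with it (limma adjusted p of 0.000388 or less). Socs1 without IL-4 was 0.816 and 1.17 TPM on plates and was not called against either gel (-0.11 and -0.18), whereas with IL-4 it was 55.8 and 50.6 TPM on plates and higher in gels by 1.74 and 1.05 (adjusted p = 5.51e-06 and 0.000132). Cish with IL-4 was 20.5 and 10.4 TPM on plates, the widest spread of any of its groups, and was higher in gels by 2.21 and 2.18 (adjusted p = 4.27e-05 and 4.32e-05). Without IL-4 Cish was 1.28 and 0.979 TPM on plates and was higher in gels by 0.68 and 0.98 (adjusted p = 0.0398 and 0.00694), the former not called without low collagen untreated replicate 2 (0.211). Untreated Socs1 was called against high-collagen gels without TC plate untreated replicate 1 (-0.30, 0.151) or with a pseudocount of 0.1 (-0.33, 0.195), and against both gels after quantile normalization (-0.29 and -0.33, 0.0809 and 0.0490).

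The IL-4 response in gels minus that on TC plates was called by limma for 4 of the 10 genes in low-collagen gels, against 28.0% of all genes (9.30% higher, 18.7% lower), and for 4 of the 10 in high-collagen gels, against 17.3% (8.66% higher, 8.61% lower). These were Il2rg, Socs1 and Cish, with a more positive response in gels, and Jak1, with a more negative one. For Il2rg the difference was 1.34 and 1.10 in low- and high-collagen gels (SE 0.12, adjusted p = 0.000236 and 0.000931). For Socs1 it was 1.85 and 1.22 (SE 0.20, adjusted p = 0.000597 and 0.00623), and for Cish 1.53 and 1.21 (SE 0.35, adjusted p = 0.0243 and 0.0795). For Jak1 it was -0.55 and -0.27 (SE 0.10, adjusted p = 0.00684 and 0.143). The Cish call in high-collagen gels was lost without TC plate untreated replicate 1 (adjusted p = 0.209), and with a pseudocount of 0.1 (0.83, 0.305), and its value was 0.75 without TC plate + IL-4 replicate 2 (still called, 0.130). The Jak1 call there was lost without TC plate untreated replicate 1, TC plate + IL-4 replicate 2, high collagen untreated replicate 1 or either high collagen + IL-4 replicate (0.214 to 0.346), after rescaling (-0.22, 0.221) and without the mean-variance trend (0.220). After rescaling Stat6 was called in low-collagen gels (0.22, 0.125), and with a pseudocount of 0.1 Il13ra1 was called in high-collagen gels (1.15, 0.0725). Without TC plate untreated replicate 2, Socs3 was called in low-collagen gels (-0.64, 0.191).

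By the mean of each group, the order of levels was as follows, where neighbours named as overlapping had libraries that overlapped. Il4ra was highest in untreated low- and high-collagen gels (106 and 104 TPM, overlapping), then in low- and high-collagen gels with IL-4 (91.9 and 90.4 TPM, overlapping) and lowest on TC plates without and with IL-4 (60.4 and 56.9 TPM, overlapping). Socs1 was highest with IL-4 in low-collagen gels, then high-collagen gels, then TC plates, none overlapping, and lowest in the 3 untreated groups, which overlapped. Cish had the same order over the 3 groups with IL-4, with both gels overlapping, but its untreated groups ran from high-collagen gels through low-collagen gels to TC plates and did not overlap. Il2rg ran from 165 TPM on untreated TC plates through 143 and 129 TPM in high-collagen gels with and without IL-4, 117 and 89.9 TPM in low-collagen gels with and without IL-4, to 84.4 TPM on TC plates with IL-4, with overlap only between the last 2 groups. The highest group mean was 237 times the lowest for Socs1, 63.4 times for Cish, 20.2 times for Il13ra1, 4.65 times for Socs3 and 3.60 times for Jak3, but below 2 times for Il2rg (1.96), Il4ra (1.87), Tyk2 (1.55), Jak1 (1.42) and Stat6 (1.41).

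The genes whose levels ran most like these over the 12 libraries were sought among 9670 genes with a mean of at least 5 TPM, as a description without a test, since the libraries share their groups. For Il4ra they were Fcrls (r = 0.989), AB124611 (0.986) and Fcgr4 (0.985), the last an Fc receptor for IgG. For Socs1 they were Rnase2a (0.999), Tarm1 (0.994) and Etv3 (0.992). For Cish they were Rnase4 (0.986), Mfsd12 (0.982) and Klf4 (0.982), the last a transcription factor. For Stat6 they were Nemp2 (0.948), Cln3 (0.937) and Cxcl2 (0.935), a chemokine. Rnase2a, a secreted ribonuclease, was at 0 to 0.865 TPM without IL-4, and with it reached 929 and 962 TPM at low collagen, 468 and 437 TPM at high collagen and 147 and 120 TPM on TC plates, the same order of groups as Socs1.

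Other genes of this and related routes, 71 in 9 lists, were compared in the same fit. The lists hold ligands, other receptor chains, JAK and STAT proteins, SOCS proteins, phosphatases, adaptors and cofactors. They also hold receptors of other cytokines that use JAK1, TYK2 or SOCS3, and cytokines that signal to SOCS3 or CISH. The counts are therefore not of the IL-4 route alone. Of the 56 that passed the filter, 12 were higher and 5 lower at high collagen with IL-4 (limma, against 14.1% and 6.99% of all genes), 2 were higher and 4 lower without IL-4 (3.23% and 4.79%), and the interaction called 0 of them. The ligands did not pass the filter: Il13 was listed at 0 in all 12 libraries and Il4 in 10 of them. Il13ra2, the decoy chain for IL-13, was listed at 0 throughout. With IL-4, the genes with the largest called rise or fall of each list were as follows. Stat4, a STAT of the IL-12 route, was higher by 1.06 (3.37 to 8.09 TPM), and Socs7 by 0.57 (4.79 to 7.58 TPM). Socs2, which inhibits growth hormone signaling, fell by 0.67 at high collagen (20.5 to 12.7 TPM).

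In the insulin receptor substrate and PI3K branch, the adaptor Gab2 was higher by 0.58 (27.0 to 40.8 TPM) and the adaptor Dok2 lower by 0.67 (124 to 77.5 TPM). Crlf2, a chain of the TSLP receptor, was at -0.46, the regulator Pias1 at 0.35, the cofactor Snd1 at 0.27, Il10ra at 0.33 and Csf2ra at -0.42, with limma adjusted p for these 5 genes of 0.0353 to 0.150. Without IL-4 the called genes named by the same rule were Crlf2 (-0.35), Gab2 (0.31), Snd1 (0.32) and Csf3r, the receptor of G-CSF (-0.37). No other SOCS, JAK or STAT gene was called between the gels without IL-4.

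A list of 24 genes known as STAT6 targets in alternatively activated macrophages was read beside the route. The study itself had picked several of them from these samples, among them Retnla, Chil3, Fn1 and Ccl24, so their direction is not independent evidence. Of 23 tested, 21 rose with IL-4 in low-collagen gels and 22 in high-collagen gels, and none fell. Of all genes, 13.2% and 11.5% were called higher and 40.4% and 22.8% lower in the same order. At high against low collagen with IL-4, 13 were lower and 1 higher by limma (6.99% and 14.1% of all genes), with a median of -0.56 against 0.06 for all genes. The interaction called 4 of the 23 lower, where 0.363% of all genes were called in either direction. Ccl24, a chemokine for eosinophils, had the largest fall, from 76.0 and 73.6 TPM at low collagen to 3.44 and 5.92 TPM at high collagen (-3.77, adjusted p = 0.00766), and the lectin Clec10a was the one that rose (0.25, adjusted p = 0.182). Without IL-4, 2 were higher and 5 lower (3.23% and 4.79% of all genes), with fibronectin (Fn1) at 1.24 and the transcription factor Egr2 at -1.75. In the same libraries Il4ra and Cish were not called between the gels with IL-4. Il13ra1 (0.77) and Il2rg (0.28) were called higher at high collagen there (limma adjusted p = 0.0372 and 0.117), the Il2rg call not under every alternative. Stat6 was called there only after rescaling, and the lower Socs1 rested on high collagen + IL-4 replicate 2 for its call.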

How the data were processed

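RNA sequencing of 12 BMDM libraries was analysed here. Per the methods and the submitters' processing notes, the authors prepared stranded mRNA libraries, read them from both ends, quantified transcripts with kallisto 0.46.1 (GRCm38 transcriptome) and deposited 1 table of TPM per gene and library. How transcripts were joined into genes is not given in the sources used here. Reads of genes with shared sequence are divided between them by kallisto, which can move a value.

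Of 34456 lines in the table, 129 repeats were collapsed, leaving 34327 genes. Groups came from the sample labels. TPM were taken as log2(TPM + 1), and genes with a mean of at least 1 TPM entered limma 3.58.1 (R 4.3.3), with a mean for each group and variances moderated towards a trend. P-values were adjusted over all genes tested by the Benjamini-Hochberg method, with calls at an adjusted p under 0.2. Gel comparisons used the 8 gel libraries (11852 genes), and those involving TC plates used 12 libraries (11865 genes). Depth is unknown, so no count test or counting interval was used. Levels and ratios were computed with pandas 2.3.3 and numpy 2.4.6 in python 3.11.15, and plots drawn with matplotlib 3.10.9. The GENCODE annotation of GRCm38 gave the locations of genes and the transcripts in which words of 31 bases were compared.

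The fit was tested on simulated data for high against low collagen with IL-4, with 200 of 11707 genes changed. It called 100% of 4-fold and 98% of 2-fold changes, and 17.2% of all calls were wrong. With no true change it called 6 genes. In the measured data the members' log2 fold changes for this comparison ran from -0.69 (Socs1) to 0.77 (Il13ra1). On the scale of the fit each is less than a 2-fold change. Changes of that size were not simulated, so these shares do not show how often they would be called. A member that was not called may still have changed.

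The members and lists were chosen with earlier results of these data known. All 10 members are named whatever their values, with the called genes of largest rise and fall in each other list for collagen with and without IL-4, and for Il4ra, Stat6, Socs1 and Cish the 3 genes with the highest correlation over 12 libraries. A few STAT6 targets outside this rule are named only to say where a list came from. The results were recomputed with a pseudocount of 0.1, without a filter, with a filter at 5 TPM, without the trend, after median-ratio rescaling or quantile normalization, with other libraries in the fit, with a replicate block, with calls at an adjusted p under 0.05, and without each library in turn.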

Additional observations from a re-analysis of the deposited data

Results flagged for a closer look

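The 4 genes Il2rg, Socs1, Cish and Jak1 responded differently to IL-4 in gels and on TC plates by a direct test of that difference (limma, adjusted p under 0.2), in both gels as reported, but not under every alternative in high-collagen gels. In low-collagen gels the IL-4 response minus that on TC plates was 1.34 for Il2rg, 1.85 for Socs1, 1.53 for Cish and -0.55 for Jak1, on the log2(TPM + 1) scale. In high-collagen gels it was 1.10 for Il2rg, 1.22 for Socs1, 1.21 for Cish and -0.27 for Jak1. There the call of Cish was lost at a pseudocount of 0.1 (0.83, adjusted p = 0.305) or without TC plate untreated replicate 1 (0.209). The Jak1 difference was not called after median-ratio rescaling (-0.22, 0.221), without the mean-variance trend (0.220) or when any 1 of 5 libraries was left out (0.214 to 0.346). Both gels are set against the same TC plate libraries, so these values are not independent of each other. Groups of 2 libraries are too small for a test of single outlying libraries.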

How the results depend on the processing

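Of 1887 values of single genes recomputed under the alternatives, 1788 kept their call with no turn of a called direction. Of the others, 17 gained and 70 lost a call and 12 turned. Among those kept, 49 that were called in neither setting had the other sign, 38 of them with a library left out. Counts of called members moved by over 1.5 times in the cases below. The same settings may also move the share of all genes called, which is not given here. Shifts of these counts are therefore not read as particular to the members. For collagen without IL-4 the count was 1 without a filter and 0 at an adjusted p under 0.05. For collagen with IL-4 it was 5 after median-ratio rescaling, 2 higher and 3 lower, which adds Jak3 and Stat6. At an adjusted p under 0.05 it was 3 for IL-4 in high-collagen gels, 3 for collagen averaged over IL-4 states and 2 for the IL-4 response in high-collagen gels against TC plates. Leaving out 1 library gave 0 to 2 for collagen without IL-4 (1 and 0 without high collagen untreated replicates 1 and 2), 1 to 3 with IL-4 (1 without high collagen + IL-4 replicate 2), 5 to 6 for IL-4 in high-collagen gels (5 without high collagen untreated replicate 1) and 2 to 4 for that IL-4 response (2 without TC plate untreated replicate 1). A group left with 1 library is assumed to vary like the others. The directions that turned did so under rescaling of the libraries. With median-ratio rescaling, IL-4 in low-collagen gels gave 0.000698 for Il4ra and 0.16 for Tyk2, and low-collagen gels against TC plates gave 0.0366 for Stat6 without IL-4, and 0.17 for Jak1 and 0.26 for Stat6 with it. High-collagen gels with IL-4, set against TC plates, gave 0.20 for Jak1 and 0.0715 for Stat6. With quantile normalization the values in the same order from Stat6 without IL-4 onward were 0.0172, 0.13, 0.14, 0.196 and 0.0328. The cause was not tested.

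The labels do not say whether the replicate numbers pair the libraries. Over 15 pairs of groups, the deviations of same-numbered libraries correlated by -0.123 to 0.109, with 1 pair over 0.1. These values show no strong shared shift, but they cannot tell whether same-numbered libraries came from the same mouse or preparation. With the replicate number as a block, 3 members were called for collagen with IL-4 and 4 for collagen averaged over IL-4 states, where Stat6 was no longer called (adjusted p = 0.215), and no other call changed. TPM keep no depth, so the precision of low values such as untreated Socs1 is unknown.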
